A study of Mus musculus with 18 samples.

Results

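The suppressors of cytokine signalling (SOCS) are 8 genes of the mouse, *Socs1* to *Socs7* and *Cish*, and they were taken by symbol from the expression table. The table held all 8 among its 34896 genes, and all 8 were among the 13061 genes with at least 1 TPM (a transcript level corrected for gene length and for the library's total) in at least 3 libraries that entered the tests. The study sorted granulocyte-monocyte progenitors (GMPs), pre-neutrophils (preNeu) and mature neutrophils (matNeu) from the bone marrow of C57BL/6 mice of 6 to 12 weeks. RNA-seq was done on 3 wild type libraries per cell type. Peak lists came from 1 library each of CHD4 in wild type (WT) and Gfi1-/- GMPs and of H3K4me2 in wild type GMP, preNeu and matNeu cells. The ATAC-seq lists of wild type preNeu and matNeu cells were identical and are given as 1 neutrophil list.

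SOCS proteins are the feedback brake of cytokine receptors. A cytokine such as G-CSF activates receptor-bound JAK kinases and STAT transcription factors, STATs switch on SOCS genes, and the SOCS protein then binds the receptor or the kinase through its SH2 domain and recruits a ubiquitin ligase through its SOCS box. SOCS1 and SOCS3 also block JAK kinases directly, and SOCS3 is known as the main brake on G-CSF receptor signalling in neutrophils. CHD4 is the ATPase of the NuRD chromatin remodelling complex that the repressor GFI1 recruits, and H3K4me2 is a histone mark of promoters and enhancers in use or poised for use.

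The label fields for cell type disagreed with the sample titles in every RNA-seq library and in part of the other samples, and the titles were followed. The marker genes followed the titles. The summed level of 6 GMP markers, among them *Mpo* and *Cd34*, was 45267 to 47153 TPM in the libraries titled GMP, against 8320 to 9360 TPM in preNeu and 9.32 to 32.7 TPM in matNeu cells. The 6 preNeu markers summed to 142059 to 164593 TPM in preNeu cells and to at most 4162 TPM elsewhere, and the 6 matNeu markers to 30185 to 33576 TPM in matNeu cells and to at most 1058 TPM elsewhere. Each library had between 10754 and 12256 genes at 1 TPM or more. The labels do not tie the libraries to separate animals, so that p-values measure the spread between these libraries, which may be technical.

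RefSeq promoters of 300 bases in GRCm38.p6, from 250 bases before the start to 50 after it, were at hand for 4 of the 8 members (*Socs1*, *Socs3*, *Socs4* and *Cish*). The promoters of *Socs3* and *Cish* are shown because they held the STAT core TTCNNNGAA, which reads the same on both strands and stands in capitals. The *Socs3* promoter lies at chr11:117969317-117969616 on the minus strand and the *Cish* promoter at chr9:107296409-107296708 on the plus strand.
Socs3 promoter: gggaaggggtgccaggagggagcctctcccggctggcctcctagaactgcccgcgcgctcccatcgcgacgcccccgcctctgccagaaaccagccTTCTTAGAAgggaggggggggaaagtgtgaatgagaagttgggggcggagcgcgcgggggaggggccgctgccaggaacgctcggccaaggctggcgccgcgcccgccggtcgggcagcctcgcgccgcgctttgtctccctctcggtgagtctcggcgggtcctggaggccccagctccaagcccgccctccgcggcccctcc
Cish promoter: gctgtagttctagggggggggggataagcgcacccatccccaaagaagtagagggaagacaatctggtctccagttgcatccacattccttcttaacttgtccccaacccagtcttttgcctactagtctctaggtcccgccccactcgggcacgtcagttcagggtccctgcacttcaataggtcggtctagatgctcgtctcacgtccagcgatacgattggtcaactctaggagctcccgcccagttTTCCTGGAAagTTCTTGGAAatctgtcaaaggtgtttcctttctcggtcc
The *Socs3* promoter held 1 match, at base 97, and the *Cish* promoter 2, at bases 251 and 262. Of all 32851 RefSeq promoters of this length 8.30% held the core at least once and 0.457% at least 2 times. The promoters of *Socs1* and *Socs4* held none.

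The clearest change among the SOCS genes was in *Socs3*, which was near 0 in GMP and preNeu cells and was the most abundant member in matNeu cells. *Socs1* rose from GMP to preNeu cells, *Socs2* rose in matNeu cells, and *Cish* was highest in preNeu cells. *Socs4*, *Socs5*, *Socs6* and *Socs7* were lower in matNeu cells than in GMPs on the TPM scale, and after quantile normalization none of these 4 changes passed the test. In bulk libraries, fewer cells that express a gene and less RNA of it per cell cannot be told apart.

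**Figure D1:**
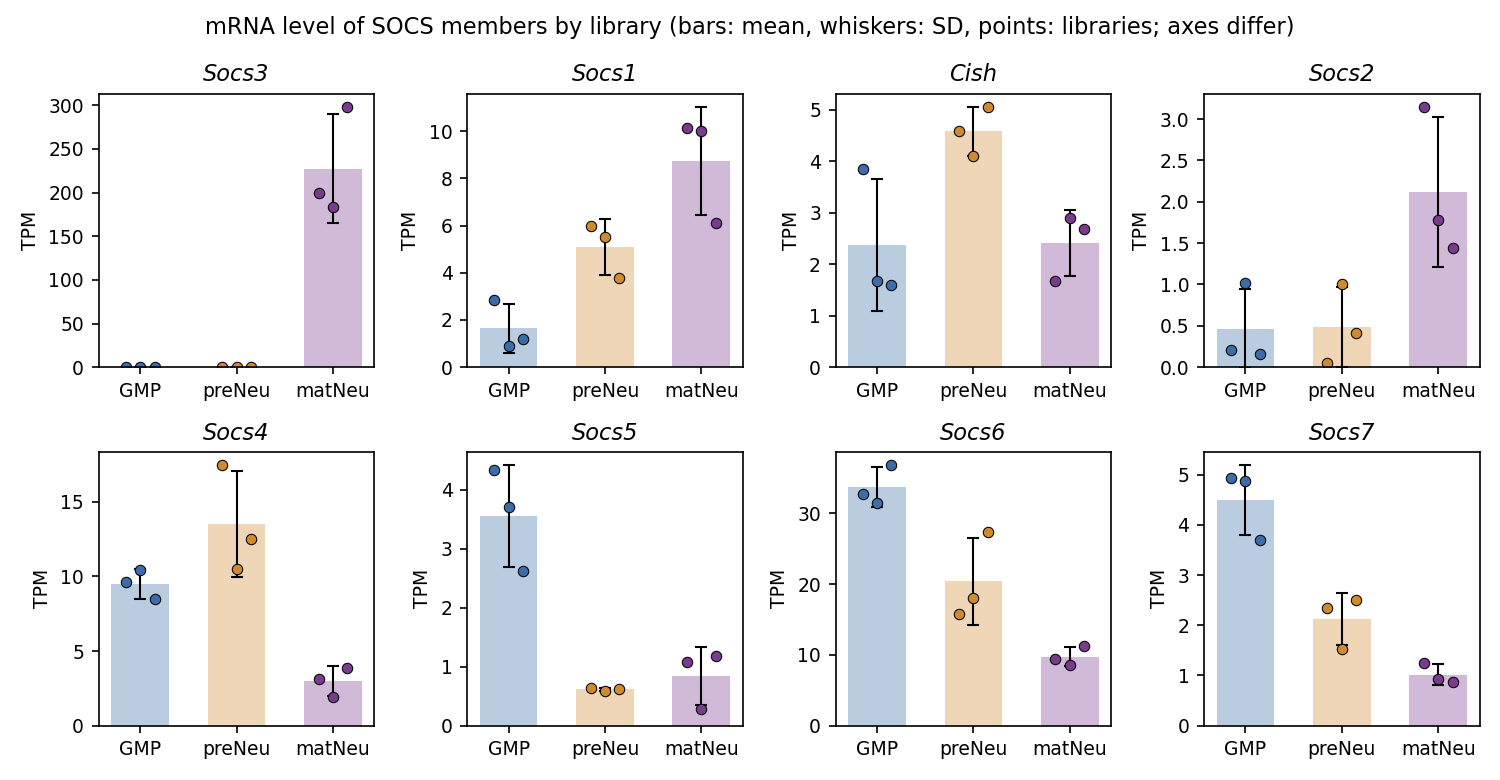
Level of each SOCS gene in TPM (vertical axis, from 0, with a range of its own in each panel) in the 3 libraries of GMP, preNeu and matNeu cells; bars give the mean, whiskers the SD and points the libraries. *Socs3* lies between 183.6 and 298.5 TPM in matNeu cells and at most 0.545 TPM elsewhere, whereas *Socs6* is highest in GMPs.

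Taken as a sum, the 8 members had 55.9 ± 2.40 TPM in GMPs (SD, n = 3), 47.2 ± 5.42 TPM in preNeu cells and 255 ± 62.0 TPM in matNeu cells. Without *Socs3* the sums were 55.7 ± 2.45, 46.8 ± 5.53 and 27.9 ± 1.82 TPM. *Socs3* thus made up 86.98 to 91.60% of the family's TPM in matNeu cells and at most 1.15% elsewhere. In GMPs *Socs6* supplied 60.3% of the family's TPM on average and *Socs4* 17.05%, and in preNeu cells these shares were 42.9% and 28.6%.

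*Socs3* (ENSMUSG00000053113) lies at chr11:117966079-117970047 on the minus strand of GRCm38. Its levels were 0.108, 0.0526 and 0.430 TPM in GMPs, 0.545, 0.454 and 0.226 TPM in preNeu cells, and 199.8, 183.6 and 298.5 TPM in matNeu cells. No library of GMP or preNeu cells reached 1 TPM, and every matNeu library was above all of them. The log2 change of TPM + 1 was 7.31 ± 0.27 (SE) from preNeu to matNeu cells (limma, adjusted p = 4.39e-09) and 7.56 ± 0.27 between GMP and matNeu cells (adjusted p = 1.49e-09). From GMP to preNeu cells it was 0.24 ± 0.27 (adjusted p = 0.464), and the libraries overlapped. Of 13061 genes, 18 rose more than *Socs3* from preNeu to matNeu cells, and 725 had a higher mean in matNeu cells. Markers of monocytes and macrophages also summed to more in matNeu cells (324 to 368 TPM, against 202 to 270 TPM in GMPs and 210 to 308 TPM in preNeu cells, with *Cd68* the highest at 251 TPM). The highest of the 6 was *Ccr2* in GMPs (127 TPM) and *Vcam1* in preNeu cells (186 TPM), so that the markers did not rise together. Of these 6 markers none was at 0 in all matNeu libraries and 1 was under 1 TPM in all of them. Their part in the level of *Socs3* was not tested.

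*Socs1* (ENSMUSG00000038037, chr16:10782240-10785536, minus strand), the other direct inhibitor of JAK kinases and a brake on interferon signalling, was measured at 2.85, 0.876 and 1.19 TPM in GMPs. It was at 5.99, 5.52 and 3.76 TPM in preNeu cells and at 10.12, 10.02 and 6.09 TPM in matNeu cells. The libraries of the 3 cell types did not overlap. It rose by 1.26 ± 0.34 from GMP to preNeu cells (adjusted p = 0.00803) and by 1.93 ± 0.34 between GMP and matNeu cells (adjusted p = 0.000319). The change from preNeu to matNeu cells, 0.67 ± 0.34, did not pass the test (adjusted p = 0.108), but passed it under both other scalings of TPM (1.03 and 1.37, adjusted p = 0.0219 and 0.00407). The 5 dendritic cell markers also summed to more outside GMPs, with 22.8 to 30.8 TPM in GMPs, 114 to 136 TPM in preNeu and 97.2 to 152 TPM in matNeu cells. None of the 5 was at 0 in all libraries of a cell type. *Cd74* was the highest in preNeu and matNeu cells, at 82.97 and 97.75 TPM. *Flt3*, the highest of the 5 in GMPs at 12.4 TPM, went the other way, to 1.98 and 0.907 TPM. The part of dendritic cells in the rise of *Socs1* was not tested.

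*Cish* (ENSMUSG00000032578, chr9:107296026-107302784, plus strand) and *Socs2* (ENSMUSG00000020027, chr10:95385362-95417180, minus strand) are known as targets of STAT5, and SOCS2 as a brake on growth hormone signalling. *Cish* was at 3.85, 1.67 and 1.60 TPM in GMPs, 4.58, 4.11 and 5.06 TPM in preNeu cells, and 1.67, 2.89 and 2.68 TPM in matNeu cells. The preNeu libraries were above all others, and GMP and matNeu libraries overlapped. The change from GMP to preNeu cells was 0.79 ± 0.31 (adjusted p = 0.0472), and the change from preNeu to matNeu cells, −0.73 ± 0.31, did not pass (adjusted p = 0.0614). The first call was lost when any of GMP replicates 2 and 3, preNeu replicates 1 to 3 or matNeu replicates 2 and 3 was left out (adjusted p between 0.0549 and 0.149). It was lost as well with the replicate number as a block (adjusted p = 0.0748) and with a pseudocount of 0.1 (adjusted p = 0.07425). The same held without the filter on low TPM and with the compared libraries alone (adjusted p = 0.0914 and 0.0635). Of 16 alternatives 5 kept this call. Between GMP and matNeu cells the change was 0.06 ± 0.31 (adjusted p = 0.859), and 1.22 after quantile normalization (adjusted p = 0.00455). An antisense gene and a pseudogene on the other strand overlap *Cish* in the annotation, and whether the counting used the strand is not given in the sources used here.

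*Socs2* was at 0.210, 1.01 and 0.163 TPM in GMPs and at 0.0482, 1.00 and 0.418 TPM in preNeu cells, where the libraries overlapped. In matNeu cells it was at 3.15, 1.77 and 1.44 TPM, above every other library. Its change was 1.08 ± 0.35 from preNeu to matNeu cells (adjusted p = 0.0197) and 1.10 ± 0.35 between GMP and matNeu cells (adjusted p = 0.0139). Both calls were lost without matNeu replicate 1 (0.85 and 0.88, adjusted p = 0.0789 and 0.0591), and the first also without preNeu replicate 1 (0.85, adjusted p = 0.0774). From GMP to preNeu cells the change was 0.02 ± 0.35 (adjusted p = 0.963).

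*Socs4* to *Socs7* carry a longer N-terminal part, and SOCS4 and SOCS5 are linked to EGF receptor signalling and SOCS6 to the receptor tyrosine kinases KIT and FLT3. *Socs6* (ENSMUSG00000056153, chr18:88665224-88927481, minus strand) was the highest member in GMPs with 32.7, 31.4 and 36.8 TPM. It was at 15.8, 18.01 and 27.4 TPM in preNeu cells and at 9.47, 8.53 and 11.2 TPM in matNeu cells, with no overlap between cell types. Its log2 change was −0.73 ± 0.22 from GMP to preNeu cells (adjusted p = 0.0165), −0.96 ± 0.22 from preNeu to matNeu cells (adjusted p = 0.00316) and −1.69 ± 0.22 between GMP and matNeu cells (adjusted p = 3.76e-05). The first call was lost without GMP replicate 3, preNeu replicate 1 or preNeu replicate 2 (adjusted p = 0.0578, 0.0651 and 0.0563).

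*Socs4* (ENSMUSG00000048379, chr14:47276931-47296102, plus strand) was at 9.62, 10.4 and 8.46 TPM in GMPs, 17.5, 10.5 and 12.5 TPM in preNeu cells and 3.16, 1.95 and 3.89 TPM in matNeu cells. The matNeu libraries were below all others, and the GMP and preNeu libraries did not overlap but nearly touched. Its change was −1.86 ± 0.27 from preNeu to matNeu cells (adjusted p = 0.000139) and −1.42 ± 0.27 between GMP and matNeu cells (adjusted p = 0.000660). From GMP to preNeu cells it was 0.44 ± 0.27 (adjusted p = 0.192), and under the other scalings 0.82 and 1.10 (adjusted p = 0.0310 and 0.00991).

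*Socs5* (ENSMUSG00000037104, chr17:87107679-87137839, plus strand) was at 4.33, 3.71 and 2.62 TPM in GMPs and at most 1.17 TPM in every other library. It was at 0.633, 0.588 and 0.629 TPM in preNeu cells and at 1.08, 0.284 and 1.17 TPM in matNeu cells. It fell by 1.48 on the log2 scale from GMP to preNeu cells (SE 0.29, adjusted p = 0.00120), and the change from preNeu to matNeu cells was 0.15 ± 0.29 (adjusted p = 0.670). Between GMP and matNeu cells it fell by 1.32 (SE 0.29, adjusted p = 0.00145).

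*Socs7* (ENSMUSG00000038485, chr11:97362551-97398542, plus strand) was at 4.93, 4.87 and 3.70 TPM in GMPs, 2.34, 1.52 and 2.50 TPM in preNeu cells and 1.26, 0.922 and 0.870 TPM in matNeu cells, with no overlap. Its change was −0.82 ± 0.26 from GMP to preNeu cells (adjusted p = 0.0173), −0.62 ± 0.26 from preNeu to matNeu cells (adjusted p = 0.0540, not called) and −1.44 ± 0.26 between GMP and matNeu cells (adjusted p = 0.000346). The first call was lost without GMP replicate 1, GMP replicate 2 or preNeu replicate 2 (adjusted p = 0.0518, 0.0516 and 0.0638). The summed markers of T and NK cells, basophils and mast cells, eosinophils and megakaryocytes were also lower outside GMPs. Those of B cells and erythroid cells did not follow this throughout. B cell markers summed to 78.88 to 94.46 TPM in GMPs, at most 45.32 TPM in preNeu and 61.20 to 133.5 TPM in matNeu cells. Erythroid markers summed to 8.374 to 11.85 TPM in GMPs, 10.68 to 15.84 TPM in preNeu and 4.815 to 12.38 TPM in matNeu cells. The 5 markers of T and NK cells had sums of 460 to 613 TPM in GMPs, 217 to 252 TPM in preNeu and 9.76 to 16.0 TPM in matNeu cells. *Nkg7* made up most of the GMP sum at 539 TPM. Of the 5, 2 were at 0 and 3 under 1 TPM in all GMP libraries. In matNeu cells none was at 0 in all libraries, 1 was under 1 TPM and *Cd3d* was the highest at 9.99 TPM, so that not all 5 fell. The 4 basophil and mast cell markers summed to 412 to 526 TPM in GMPs, 96.5 to 152 TPM in preNeu and 1.73 to 6.50 TPM in matNeu cells, with none at 0 in all libraries of a cell type. The 4 eosinophil markers summed to 202 to 288, 21.5 to 35.7 and 33.2 to 52.3 TPM, with 1 at 0 in all matNeu libraries, and the 4 megakaryocyte markers to 38.0 to 51.8, 3.52 to 7.29 and 6.98 to 9.61 TPM, with none at 0. The part of these cell types in the falls of *Socs4* to *Socs7* was not tested.

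Over the family, from GMP to preNeu cells 2 members rose (*Socs1* and *Cish*) and 3 fell (*Socs5*, *Socs6* and *Socs7*), where 14.7% of all genes tested rose and 44.3% fell. From preNeu to matNeu cells 2 rose (*Socs2* and *Socs3*) and 2 fell (*Socs4* and *Socs6*), beside 22.9% and 39.8% of all genes. Between GMP and matNeu cells 3 rose (*Socs1*, *Socs2* and *Socs3*) and 4 fell (*Socs4* to *Socs7*), beside 22.8% and 54.1% of all genes. The 5 calls from GMP to preNeu cells became 3 without GMP replicate 2, GMP replicate 3 or preNeu replicate 1, and 2 without preNeu replicate 2. The comparisons share libraries and are not independent of each other. The median gene changed by −0.52, −0.32 and −0.92 in these 3 comparisons, and relative to it the matNeu change of *Socs4*, *Socs5*, *Socs6* and *Socs7* against GMPs was −0.50, −0.40, −0.77 and −0.52. After quantile normalization these 4 changes were −0.01, −0.32, −0.42 and −0.39 and none passed the test (adjusted p between 0.0816 and 0.975), whereas *Socs1*, *Socs2* and *Socs3* were called under both scalings. *Socs6* and *Socs7* also lost their calls from GMP to preNeu cells under both (adjusted p between 0.136 and 0.740), and *Socs6* its call from preNeu to matNeu cells after quantile normalization (−0.26, adjusted p = 0.285). Upward calls made up 24.98%, 36.5% and 29.6% of all calls in the 3 comparisons, 41.3%, 48.1% and 44.2% after median ratio scaling, and 48.1%, 50.3% and 50.2% after quantile normalization.

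**Figure D2:**
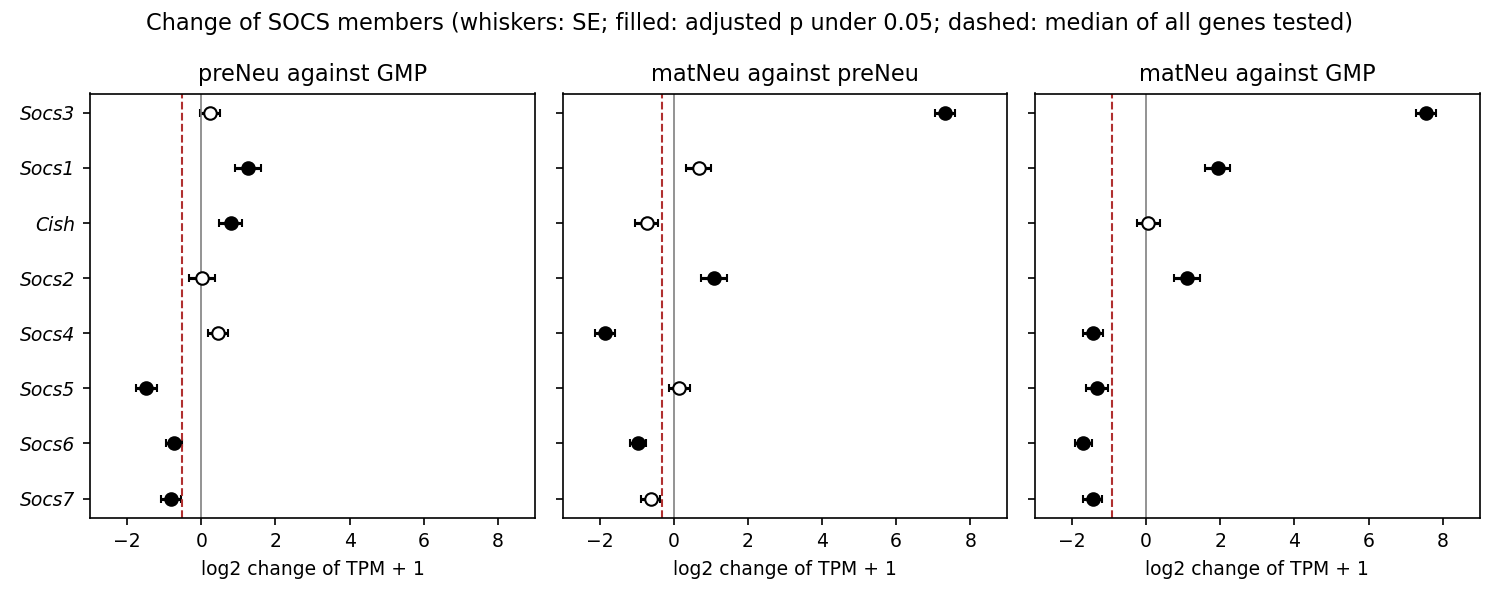
Log2 change of TPM + 1 of each SOCS gene (horizontal axis) with its SE in the 3 comparisons; filled points have an adjusted p under 0.05 and the dashed line is the median of all 13061 genes. *Socs3* stands at 7.31 and 7.56 in the comparisons with matNeu cells, and *Socs4* to *Socs7* lie to the left of the median gene in matNeu cells against GMPs (after quantile normalization none of these 4 passed the test).

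The order of the levels within a cell type was read from the mean TPM, with neighbours called separate where their libraries did not overlap. In GMPs *Socs6* was above *Socs4*, and *Socs4* above *Socs7*. *Socs7*, *Socs5*, *Cish*, *Socs1*, *Socs2* and *Socs3* followed, each overlapping the next. In preNeu cells *Socs6* and *Socs4* overlapped and were above *Socs1* and *Cish*, which overlapped each other, then came *Socs7*, and *Socs5*, *Socs2* and *Socs3* overlapped at the bottom. In matNeu cells *Socs3* was above *Socs6* and *Socs1*, which overlapped, then *Socs4*, *Cish* and *Socs2*, each overlapping the next, and then *Socs7* and *Socs5*, which overlapped.

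*Socs3* was the one member whose cell type means spanned at least 2 on the log2 scale. The tested genes most like it over the 9 libraries were the chemokine gene *Cxcl2* (Pearson r = 0.999), the metalloreductase gene *Steap4* (r = 0.998) and *Adam30* (r = 0.998). *Cxcl2* was at 0.151, 0.250 and 270 TPM on average in GMP, preNeu and matNeu cells and *Steap4* at 0.0139, 0.0151 and 63.1 TPM, while *Adam30* was listed at 0 in GMP and preNeu cells. The 9 points fall into matNeu libraries and the rest, and 95 genes had an r above 0.99, so the ranking describes a shared rise in matNeu cells.

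Upstream of the SOCS proteins, 21 of 25 listed receptors that signal through JAK kinases were tested. Of these, 2 rose and 9 fell from GMP to preNeu cells, 13 rose and 2 fell from preNeu to matNeu cells, and 13 rose and 6 fell between GMP and matNeu cells. Of all 13061 genes tested, 14.7%, 22.9% and 22.8% rose and 44.3%, 39.8% and 54.1% fell in these 3 comparisons. These shares also stand beside the lists that follow. After median ratio scaling 2811, 4021 and 4406 of the 13061 genes rose in the 3 comparisons and 4003, 4347 and 5553 fell. After quantile normalization 3299, 4110 and 4991 rose and 3559, 4058 and 4958 fell. List counts under these 2 scalings are to be read beside these numbers. The median change of the receptors between GMP and matNeu cells was 1.30, against −0.92 for all genes. From GMP to preNeu cells it was −0.08, with the sign turning under both other scalings (0.07 and 0.33), where 7 and 8 receptors rose and 8 and 7 fell. *Csf3r*, the G-CSF receptor that SOCS3 restrains and also 1 of the 6 matNeu markers, went from 135 ± 6.00 TPM in GMPs to 206 ± 17.6 TPM in preNeu and 3874 ± 502 TPM in matNeu cells (SD, n = 3). Its log2 change against GMPs was 4.82 (adjusted p = 2.18e-10). *Il13ra1*, a chain of the IL-13 receptor, rose by 6.55 (adjusted p = 1.33e-07). *Il6st*, which encodes the gp130 chain that SOCS3 binds, fell by 4.57 on the log2 scale (adjusted p = 3.30e-06), from 39.9 to 0.981 TPM, and *Il3ra* fell by 2.59 (adjusted p = 2.85e-05).

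Among 5 receptor tyrosine kinases, *Igf1r* (1.89, adjusted p = 2.32e-05) and *Insr* (0.97, adjusted p = 0.00356) rose in matNeu cells against GMPs, and *Kit* and *Flt3*, both linked to SOCS6, fell by 5.57 and 2.86 (adjusted p = 7.82e-09 and 5.15e-06). *Kit*, also 1 of the GMP markers, was at 187, 56.5 and 3.11 TPM on average in GMP, preNeu and matNeu cells. From GMP to preNeu cells none of the 5 rose and 3 fell, and from preNeu to matNeu cells 3 rose and 1 fell. The median of the list in matNeu cells against GMPs was 0.57, against −0.92 for all genes, of which 22.8% rose and 54.1% fell.

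All 11 JAK and STAT genes were tested, and 8 rose and 3 fell between GMP and matNeu cells, with a median change of 1.26. From GMP to preNeu cells 4 rose and 4 fell, and from preNeu to matNeu cells 7 rose and none fell. Between GMP and matNeu cells 22.8% of all genes rose and 54.1% fell. *Jak1* rose by 2.35 (adjusted p = 5.12e-08) between GMP and matNeu cells. Of the paired genes for STAT5, *Stat5a* fell by 1.36 (adjusted p = 0.000256) and *Stat5b*, named after its values were seen, rose by 1.26 (adjusted p = 1.27e-05), from 36.6 to 89.3 TPM, and was called under both other scalings (2.07 and 2.03). *Jak3* fell by 1.10 (adjusted p = 0.000854). *Tyk2*, at −1.10 as well (adjusted p = 9.24e-05), and *Jak3* did not pass under either other scaling, where *Jak3* turned to 0.10 after quantile normalization, and *Stat5a* passed under 1 of them (−0.56, and −0.29 after quantile normalization).

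Of 14 tested genes for other inhibitors of this pathway, 7 rose and 1 fell from GMP to preNeu cells, 7 rose and 4 fell from preNeu to matNeu cells, and 9 rose and 4 fell between GMP and matNeu cells, with a median of 1.06. After median ratio scaling 10 rose and 3 fell in the last comparison, and after quantile normalization 10 rose and 1 fell. Before these scalings 22.8% of all genes rose and 54.1% fell in that comparison. After them 4406 and 4991 of all 13061 genes rose and 5553 and 4958 fell. *Ptprc*, the CD45 phosphatase, rose by 3.51 (adjusted p = 4.40e-09) and *Usp18*, a brake on the type I interferon receptor, by 3.25 (adjusted p = 2.55e-06). The ubiquitin ligase gene *Cblb* fell by 3.06 (adjusted p = 3.14e-07) and *Pias2* by 1.95 (adjusted p = 5.65e-05; −0.52 and not called after quantile normalization).

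The ubiquitin ligase that the SOCS box recruits is built on a cullin with elongins B and C. The list gave 10 symbols for 8 genes, with an older and a newer symbol for each elongin, and all 8 genes were tested. None of the 8 rose in any of the 3 comparisons, and 5 fell from GMP to preNeu cells, 5 from preNeu to matNeu cells and 7 between GMP and matNeu cells. Of all genes tested 44.3%, 39.8% and 54.1% fell in these comparisons. Under both other scalings 1 of the 8 was called higher from preNeu to matNeu cells. The list's median change between GMP and matNeu cells was −1.36, against −0.92 for all genes. Under the other scalings it was −0.55 and −0.48, against −0.25 and 0.03, and 5 and 4 of the 8 fell. From GMP to preNeu cells the median was −0.50, close to the −0.52 of all genes. Under both other scalings 2 in place of 5 fell from GMP to preNeu cells (medians −0.08 and −0.07). Of all 13061 genes 4003 and 3559 fell there. *Cul5*, the cullin of the SOCS ligase, fell from 35.3 to 4.22 TPM, by 2.83 (adjusted p = 7.82e-07), and *Cul2* from 66.6 to 6.09 TPM, by 3.29 (adjusted p = 2.22e-07). Of 13 tested genes for other SOCS-box proteins, 3 rose and 5 fell from GMP to preNeu cells, 2 rose and 2 fell from preNeu to matNeu cells, and 3 rose and 5 fell between GMP and matNeu cells. In the last comparison 22.8% of all genes rose and 54.1% fell. The median of the 13 in it was −0.28, against −0.92 for all genes, and its sign turned under both other scalings (0.54 in both). There 6 of the 13 rose and 3 fell after median ratio scaling, and 6 rose and 2 fell after quantile normalization. Of all 13061 genes 4406 rose and 5553 fell under the first scaling, and 4991 and 4958 under the second. The counts from GMP to preNeu cells likewise turned to 5 higher and 3 lower and to 6 higher and 3 lower. Of all genes 2811 were higher and 4003 lower in that step, and 3299 and 3559 after quantile normalization. *Asb7* rose by 3.29 (adjusted p = 1.20e-07) and *Spsb2* by 1.87 (adjusted p = 6.89e-06), *Neurl2* fell by 2.75 (adjusted p = 1.72e-06), and *Spsb4*, at 3.87 TPM in GMPs, was called lower and listed at 0 in every preNeu and matNeu library.

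Downstream, all 22 genes known to respond to STAT factors were tested, and 14 rose and 7 fell between GMP and matNeu cells, with a median change of 2.62. From GMP to preNeu cells 8 rose and 6 fell, and from preNeu to matNeu cells 12 rose and 3 fell. Between GMP and matNeu cells 22.8% of all genes rose and 54.1% fell. *Gadd45g* rose by 6.04 (adjusted p = 1.92e-08) and *Junb* by 5.50 (adjusted p = 5.45e-10) against GMPs. *Myc* fell by 8.37 (adjusted p = 3.65e-10), from 429 to 0.302 TPM, and *Pim3* by 2.45 (adjusted p = 6.88e-07). *Junb* was at 44.5, 23.8 and 2088 TPM in GMP, preNeu and matNeu cells, so that it fell from GMP to preNeu cells (by 0.88, adjusted p = 0.000797) before its rise.

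At the chromatin level, H3K4me2 covered the start of the coding transcripts of all 8 SOCS genes in all 3 cell types, whether or not their mRNA was high. A peak covered the start of 50.8% of 21851 protein-coding genes in GMPs, 56.1% in preNeu and 53.9% in matNeu cells. With 1 library per cell type there was no replicate check, and the lists differed in length (37643, 49578 and 44094 peaks). Cell types follow the titles, which the other label field contradicts for the lists titled preNeu and matNeu.

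The peak over the *Socs3* start widened at both steps. It was 2719 bp wide in GMPs (chr11:117967968-117970686), 8772 bp in preNeu cells (chr11:117968008-117976779) and 15090 bp in matNeu cells (chr11:117962555-117977644). The median peak over a start was 2153, 3112 and 2455 bp wide in these lists, and 67.1%, 93.1% and 98.4% of the genes with such a peak had a narrower one than *Socs3*. From preNeu to matNeu cells the *Socs3* peak became 1.72 times as wide, while the median of 10092 genes with a peak in all 3 lists was 0.817. Within 10 kb on either side of its start, H3K4me2 peaks covered 36.9% of the sequence in GMPs, 66.3% in preNeu and 83.0% in matNeu cells, where the median gene had 7.56%, 10.8% and 8.26%. Its fold enrichment, ranked within each list, was above that of 96.2% of the peaks over starts in GMPs, 69.7% in preNeu and 15.5% in matNeu cells, so that its rank fell as the peak widened. The H3K4me2 lists hold no summits, so whether enrichment at the strongest point of the peak fell as well is unknown. In preNeu cells the wide peak stood over a gene at 0.408 ± 0.164 TPM (SD, n = 3). The printed *Socs3* promoter lies inside these peaks and inside a neutrophil ATAC-seq peak of 1762 bp (chr11:117968376-117970137).

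**Figure D3:**
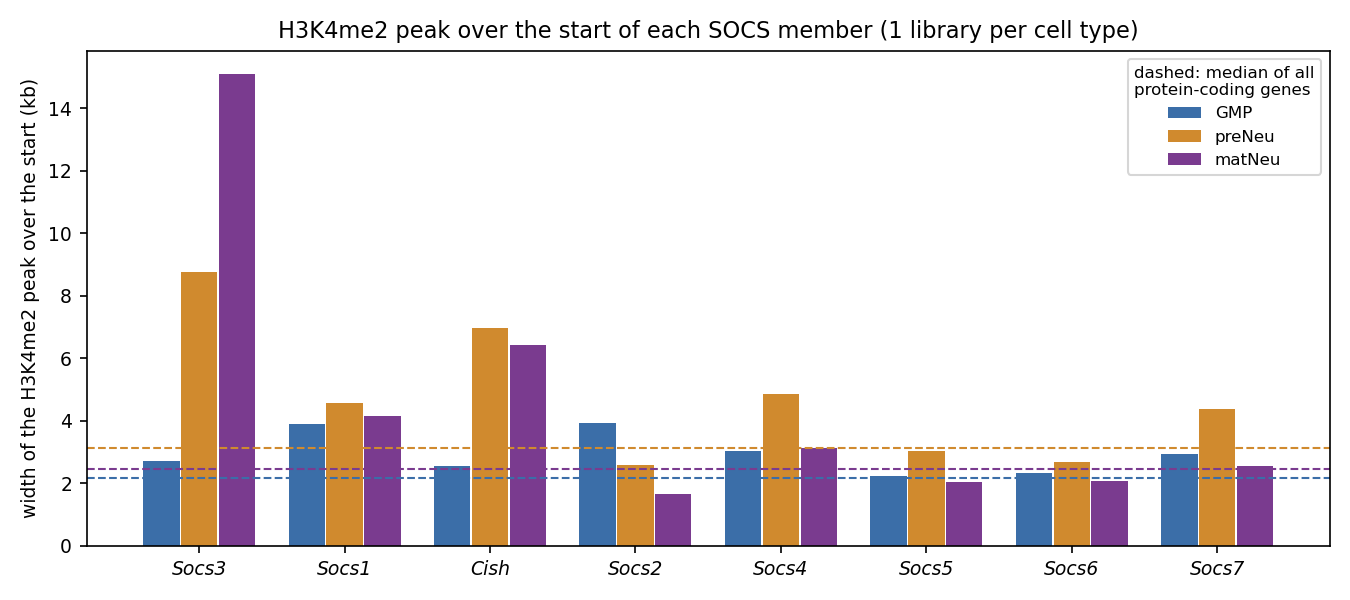
Width in kb of the H3K4me2 peak over the start of each SOCS gene (vertical axis) in the single GMP, preNeu and matNeu libraries; dashed lines give the median of all protein-coding genes with a peak over the start. The *Socs3* peak widens from 2.72 to 8.77 and 15.1 kb, and the other 7 genes stay under 7 kb.

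*Cish* also had a peak that was wider in both neutrophil lists, with 2552 bp in GMPs, 6978 bp in preNeu and 6422 bp in matNeu cells. Peaks covered 35.4%, 66.8% and 63.1% of the 20 kb around its start. A separate wide peak lay upstream, 7398 bp in GMPs, 14652 bp in preNeu cells (chr9:107276432-107291083) and 12973 bp in matNeu cells. The *Socs1* peak differed less, with 3887, 4565 and 4161 bp. The peak over *Socs2* narrowed from 3923 bp in GMPs to 2593 and 1665 bp, although its mRNA was higher in matNeu cells. Between GMP and matNeu cells its width ratio of 0.424 was undercut by 2.48% of genes, while the median ratio was 1.06. For *Socs4*, *Socs5*, *Socs6* and *Socs7* the widths in GMP and matNeu cells were within a ratio of 0.867 to 1.03. Over the gene and 10 kb on either side, the 8 members had 28 H3K4me2 peaks in GMPs, 29 in preNeu and 23 in matNeu cells. The median protein-coding gene had 1, 2 and 2. At *Socs3* the count went from 6 in GMPs to 3 in matNeu cells while the covered share rose. Past a −log10 q-value of 5 the members had fewer peaks in GMPs than in matNeu cells. An ATAC-seq peak of the neutrophil list lay at the promoter (2 kb upstream to 500 bp downstream of a start) of 7 members and not of *Socs2*, where 38.4% of protein-coding genes had one.

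**Figure D4:**
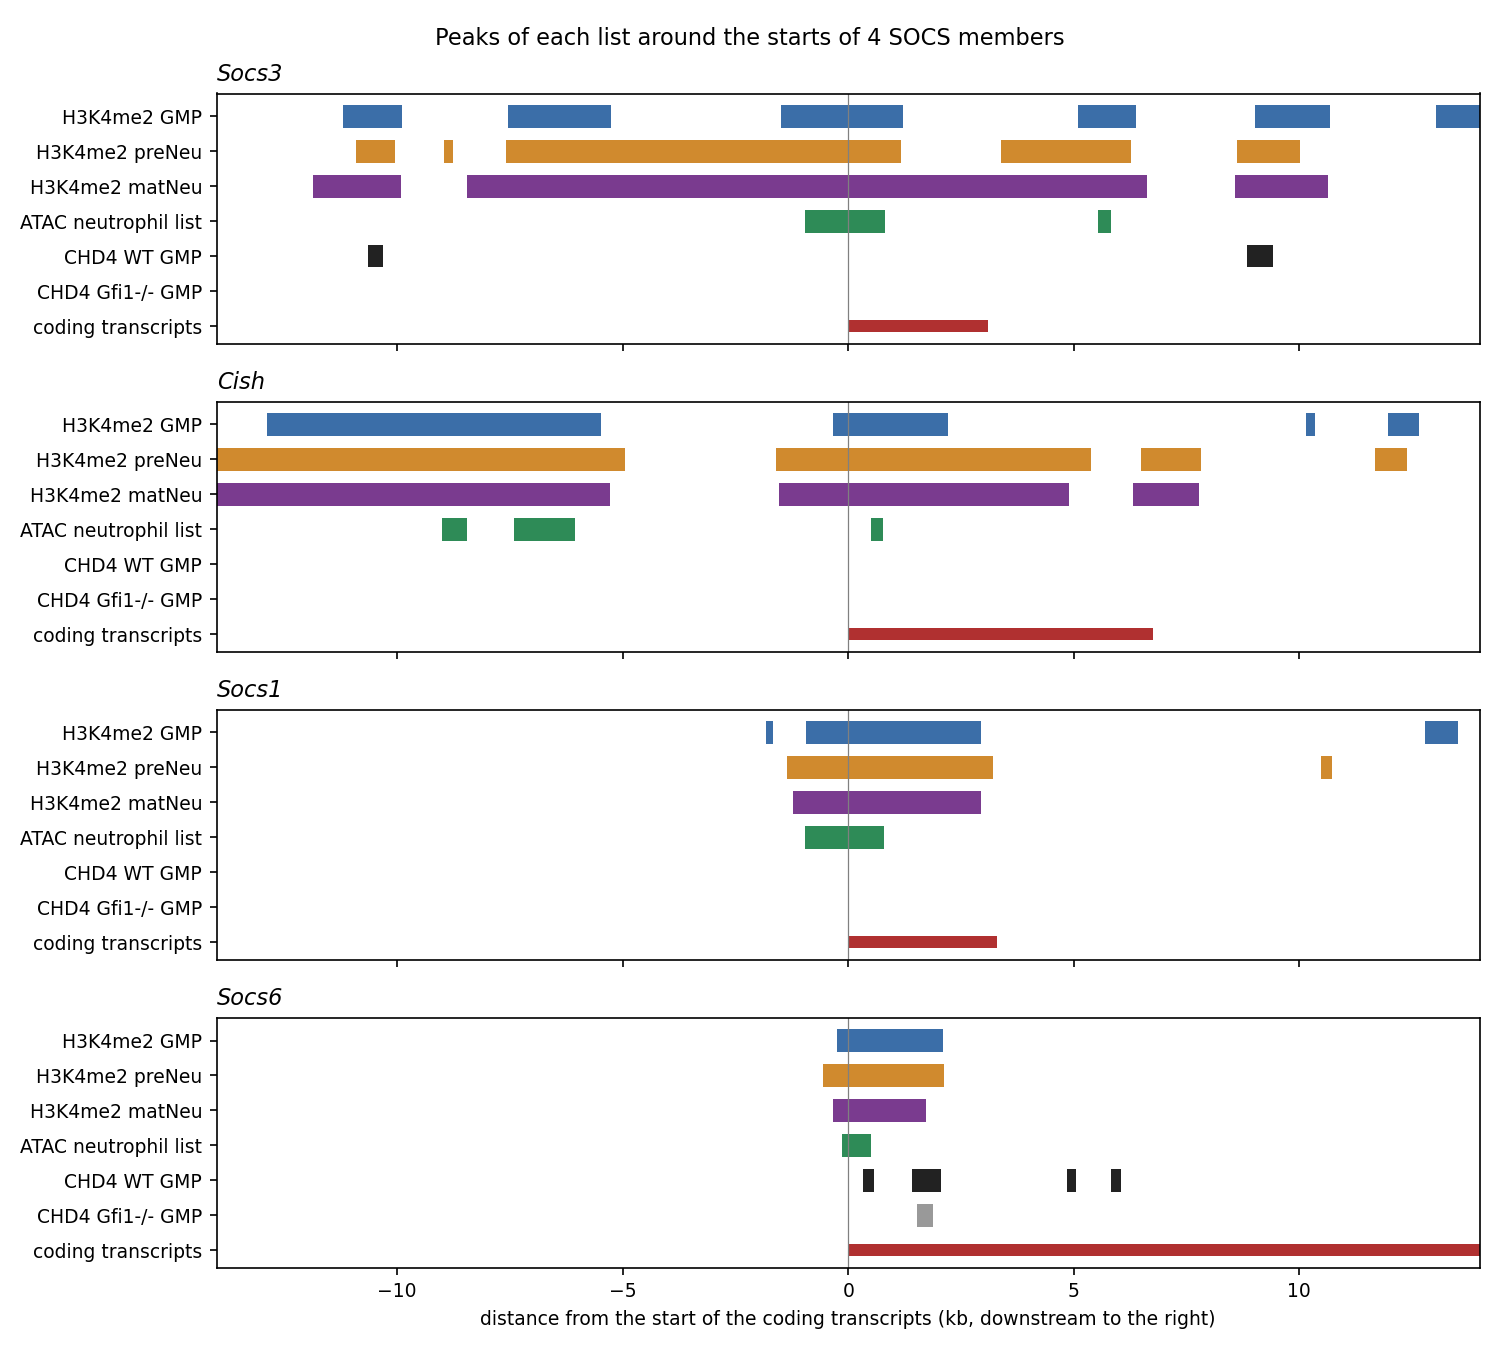
Peaks of each list as bars against the distance in kb from the start of the coding transcripts (horizontal axis, downstream to the right) for *Socs3*, *Cish*, *Socs1* and *Socs6*; the red bar is the coding transcript span. At *Socs3* 3 of the 6 H3K4me2 peaks of GMPs lie within the single 15.1 kb peak of matNeu cells, with CHD4 peaks of WT GMPs 8.85 kb downstream and 10.3 kb upstream of the start.

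CHD4 in GMPs lay near 4 of the 8 members. In WT GMPs 1 peak was in or within 10 kb of *Socs2*, 2 of *Socs3*, 1 of *Socs4* and 17 of *Socs6*, and none of *Socs1*, *Socs5*, *Socs7* or *Cish*. At least 1 such peak was found at 32.4% of protein-coding genes in WT GMPs and at 10.2% in Gfi1-/- GMPs. In Gfi1-/- GMPs 4 peaks remained, all of them at *Socs6* and each overlapping a WT peak. Of the 21 WT peaks near SOCS genes, 19.0% thus had a counterpart (4 peaks, 95% Wilson interval 7.67 to 40.0%, counting error only), and of all 35790 WT peaks 18.5%. *Socs6* supplied 17 of these 21 peaks and all 4 with a counterpart. Counted from the coding transcripts, 3 members had a WT peak within 10 kb, as that of *Socs2* lay farther away. The Gfi1-/- list was shorter (7316 peaks), the depth of both libraries is unknown, and loss of CHD4 and lower enrichment of that library cannot be told apart.

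At *Socs3* neither CHD4 peak lay at the promoter. The stronger one (chr11:117959775-117960340, fold enrichment 10.7) was 8.85 kb downstream of the start, beyond the end of the gene, and the weaker one (chr11:117979495-117979836, fold enrichment 6.46) 10.3 kb upstream. Both overlapped H3K4me2 peaks in GMP, preNeu and matNeu cells, and neither had a CHD4 peak in Gfi1-/- GMPs. Among WT peaks of similar enrichment, 8.63% of those between 8.997 and 11.2 and 1.15% of those between 5.90 and 6.61 had one. The 151 bases around both summits are shown because they are the CHD4 sites nearest to the member that changed most. Capitals mark the cores searched on both strands: TTCNNNGAA for STATs, AAATCA for GFI1, TTGCNNAA for C/EBP factors, and GAGGAAGT for SPI1, which can share its GAA with the STAT core. The windows are chr11:117960099-117960249 and chr11:117979592-117979742, both given on the plus strand.
Socs3 downstream CHD4 summit: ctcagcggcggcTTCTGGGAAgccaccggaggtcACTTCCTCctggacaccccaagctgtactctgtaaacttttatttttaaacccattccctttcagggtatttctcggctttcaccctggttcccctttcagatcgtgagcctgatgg
Socs3 upstream CHD4 summit: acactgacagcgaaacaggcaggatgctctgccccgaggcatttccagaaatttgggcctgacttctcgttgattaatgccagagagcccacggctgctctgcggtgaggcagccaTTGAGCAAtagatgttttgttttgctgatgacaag
The downstream window held a STAT core at base 13 and an SPI1 core at base 35, and the upstream window a C/EBP core at base 117. Of 35728 summit windows of this length 5.59% held the STAT core, 10.1% the SPI1 core, 13.9% the C/EBP core and 8.73% the GFI1 core, which neither *Socs3* window held.

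*Socs6* has the longest annotated gene of the members, where non-coding transcripts stretch it over 262 kb around coding transcripts of 29.2 kb. The annotated gene of *Socs2* also reaches beyond its coding transcripts (31.8 kb against 5.37 kb). Of the 17 CHD4 peaks of *Socs6* 6 lay in the coding transcripts and 11 elsewhere in the annotated gene. Their fold enrichment ran from 4.25 to 25.04 with a median of 6.997. Per length of gene and flanks this was 6.02 peaks per 100 kb, and 89.8% of protein-coding genes had fewer. That share includes the genes without any such peak, as only 32.4% had at least 1. The strongest peak (chr18:88837971-88838714) was 55.6 kb downstream of the coding start and the next one (chr18:88861288-88862069, fold enrichment 21.1) 32.3 kb downstream. A peak with a fold enrichment of 15.1 (chr18:88892295-88892934) stood 1.42 kb inside the gene, and a weak one (chr18:88893779-88894016, fold enrichment 5.27) at the promoter. The 4 WT peaks with a counterpart in Gfi1-/- GMPs had fold enrichments of 25.04, 21.03, 20.2 and 15.1 and lay 55.6, 69.3, 27.9 and 1.42 kb from the start. The peak with a fold enrichment of 21.1 had none, and in its strength group, from 14.5 to 21.2, 49.9% of all WT peaks had one. The promoter peak had none either.

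**Figure D5:**
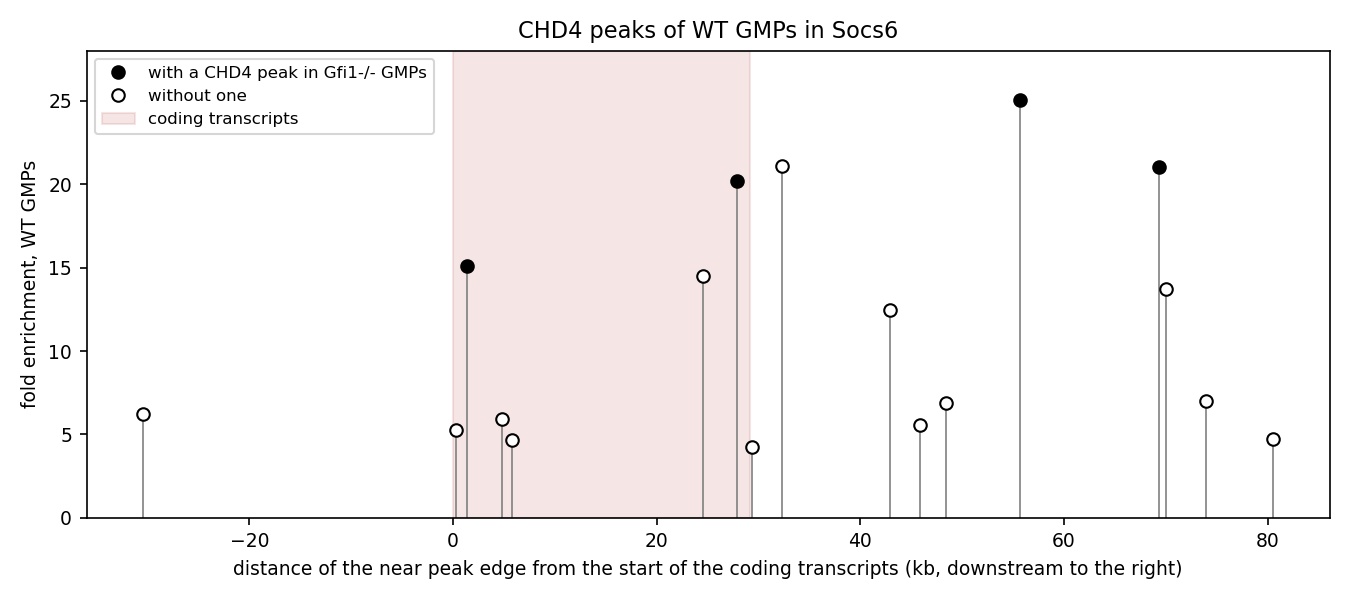
Fold enrichment of the 17 CHD4 peaks of WT GMPs in *Socs6* (vertical axis) against their distance in kb from the start of the coding transcripts (horizontal axis); filled points have a CHD4 peak in Gfi1-/- GMPs and shading marks the coding transcripts. The 4 filled points lie at 15.1 to 25.04, and every peak under 15 is open.

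The single CHD4 peaks of *Socs2* (chr10:95396303-95396499, fold enrichment 4.96, 20.4 kb downstream of the coding start) and *Socs4* (chr14:47294096-47294296, fold enrichment 7.14, 17.2 kb downstream, in an exon) had no counterpart in Gfi1-/- GMPs. Of all 21 WT peaks near SOCS genes, 9 overlapped an H3K4me2 peak in GMPs (42.9%, interval 24.5 to 63.5%), 8 in preNeu cells (38.1%, 20.8 to 59.1%) and 7 in matNeu cells (33.3%, 17.2 to 54.6%). Over all WT peaks these shares were 37.8%, 59.5% and 52.5%. *Socs6* supplied 17 of the 21 peaks and 6, 5 and 5 of the overlaps. The intervals cover counting error only and treat peaks of 1 gene as independent, so they cannot tell whether SOCS genes differ from the rest.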

How the data were processed

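RNA-seq values were deposited as TPM, with 1 column for each library. The submitters' processing notes name kallisto 0.44.0 and the methods TopHat and HTSeq, and which of them gave the TPM values is not given in the sources used here. TPM keeps no depth, so the depth is unknown and no count test was used. The deposited peak lists give each peak's fold enrichment, a linear ratio, and its −log10 q-value as the authors' peak caller wrote them (the notes name BWA 0.7.17 and MACS2 2.1.0, build mm10), 1 list per library, and were used to describe and filter peaks within a list. Of 174179 CHD4 and H3K4me2 peaks on the named chromosomes, 0 ran past a GRCm38 chromosome end. The deposited score and p-value columns of the lists, and the GFI1 and H3K4me3 lists, which do not match the mouse chromosomes, were not used here. All columns of per-library TPM were used.

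Expression was fitted with limma 3.58.1 (R 4.3.3) on log2(TPM + 1), which understates changes of low genes. All 9 libraries entered, with cell type as sole factor and the variance moderated along the mean level. A gene needed 1 TPM or more in 3 or more libraries, and the Benjamini-Hochberg threshold was 0.05 over all genes. The code was tested on simulated data. Peaks were assigned to the annotated gene (GENCODE M21) and 10 kb on either side with Python 3.11.15, and overlap meant at least 1 bp. Shares carry 95% Wilson intervals (scipy 1.17.1). All 8 members were named, with the 2 called genes of largest change each way per list and the 3 genes most like a member with a span of at least 2, and 1 gene that this rule names is not reported here. The members and lists were chosen with earlier results of these data known. Alternatives were another pseudocount, other filters, 2 scalings, the compared libraries alone, a replicate block, no trend, a minimum log2 change of 1, leaving out each library, and other peak windows, thresholds and overlaps. The span of the coding transcripts was added after seeing the data.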

Additional observations from a re-analysis of the deposited data

How the results depend on the processing

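The number of SOCS genes called from GMP to preNeu cells (5) was 2 with a filter of at least 5 TPM and 2 with a minimum log2 change of 1, and between 2 and 5 when 1 library was left out (3 without GMP replicate 2, GMP replicate 3 or preNeu replicate 1, and 2 without preNeu replicate 2). Between GMP and matNeu cells (7) it was 4 with that filter, which removes low members, and 4 after quantile normalization. With the replicate number as a block, 7652, 8142 and 10032 genes were called in the 3 comparisons, against 7706, 8197 and 10041, and among the members the block changed the call of *Cish* from GMP to preNeu cells alone. Same-numbered libraries correlated between −0.04 and 0.12 in their deviations and differently numbered ones between −0.13 and 0.07. Correlations this weak cannot decide whether the numbers pair the libraries. The sign turned for changes that were near 0 and not called: *Socs2* from GMP to preNeu cells (−0.03 with a pseudocount of 0.1, and −0.22 to 0.28 when 1 library was left out) and *Cish* between GMP and matNeu cells (−0.09 to 0.36 when 1 library was left out). The cause was not tested. *Socs3* kept its calls in all 17 alternatives, from 7.34 to 9.76 between GMP and matNeu cells. Of 35, 10 or 19 CHD4 peaks within 50 kb, near the coding transcripts or within 2 kb, 11.4%, 20.0% and 21.1% had a counterpart. The 28, 29 and 23 H3K4me2 peaks became 60, 59 and 55 within 50 kb. Within 2 kb they were 17 in GMPs and 19 in preNeu cells, and past a −log10 q-value of 5 they were 10 in GMPs and 15 in matNeu cells. Peak results rest on 1 library each, and depth is unknown throughout.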
